A study of Mus musculus with 6 samples.

Results

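The lipid-sensing nuclear receptors of the PPAR, LXR and RXR families and the PGC-1 coactivators were examined in the lateral septum of mice fed olanzapine. The 10 genes were taken by their symbols from the 35415 genes of the count table: Ppara, Ppard and Pparg, Nr1h2 and Nr1h3, Rxra, Rxrb and Rxrg, and Ppargc1a and Ppargc1b. All 10 were found, and all 10 passed the filter on low counts, as did 17255 genes in all. Female wild-type C57BL/6 mice, about 8 weeks old when they arrived, received chow with the antipsychotic olanzapine at 50 mg per kg of feed (olanzapine group) or a control chow (control group) for 12 weeks. The lateral septum was dissected, and each library held the RNA of a pool of 3 mice, so that n was 3 pools per group throughout. Both groups were wild type, and no transgene or deletion was used. A pool averages its mice, so that the spread between pools is not the spread between animals.

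PPARs and LXRs are transcription factors that sit on DNA as a pair with an RXR and switch on their targets when they bind a lipid: fatty acids and their derivatives for the PPARs, oxidized cholesterol for the LXRs. Unliganded pairs hold corepressors, and liganded ones recruit coactivators, of which PGC-1α and PGC-1β, the products of Ppargc1a and Ppargc1b, also drive the building of mitochondria. In the brain, LXRs are known for the cholesterol traffic between astrocytes and neurons, and PPARs for fatty acid use in glia and for restraint of inflammation.

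The counts on genes summed to between 38208153 and 39868872 per library, and the median log2 fold change of all tested genes was 0.0039. Markers of lateral septum neurons, led by Sst, were present in every pool. Their summed levels were 2440 to 3103 CPM (counts scaled to library size) in control and 2049 to 2673 in olanzapine pools. The gene said to lead a list has its highest mean FPKM (level per gene length) over the 6 pools. Of the 10 septal markers, 3 had positive log2 fold changes, Sst among them (0.19), and 7 negative ones, with a median of -0.28. At an unadjusted p under 0.05 in edgeR's quasi-likelihood test, 0 were higher and 4 lower, against 9.19% and 8.4% of all tested genes. The 9 markers of striatal neurons, led by Penk, were also present (1440 to 2474 and 1481 to 2900 CPM), as were those of the choroid plexus, led by Ttr, which ranged from 68.9 to 7509 CPM over the 6 pools. Olanzapine replicate 1 stood apart in the sum of the 7 cortical neuron markers, at 954 CPM against 78.4 to 148 in the other 5 pools. All 10 hepatocyte markers, Alb among them, were higher in the olanzapine group (summed 12.8 to 22.6 against 225 to 280 CPM), as were 4 of 6 nuclear-retained RNAs, Meg3 among them (2261 to 2808 against 5064 to 6139 CPM), by edgeR (quasi-likelihood, Benjamini-Hochberg). Of those 10 hepatocyte markers, 7 reached the count filter's minimum (0.256 CPM) in every control pool, and Hnf4a, Cps1 and Tat entered the test only through the olanzapine pools. By the same edgeR test, none of the other marker lists held a called gene: septal, striatal and cortical neurons, choroid plexus, adipocytes, astrocytes (led by Slc1a3), microglia, oligodendrocytes (Mbp) and endothelium (Slc2a1). DESeq2 called 1 gene in each of 3 of these lists, named here after their values were seen: Dlk1 of the septal list (adjusted p = 0.0413, lower), Rgs9 of the striatal list (0.00822, higher) and Slc4a4 of the astrocyte list (0.0251, lower). The adipocyte markers summed to 0.256 to 0.618 CPM, Retn having the highest sum over the 6 pools, and Lep was at 0 counts in all 6 pools. As in any bulk tissue, fewer cells of a type and less RNA per cell cannot be told apart.

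Since the receptors of a family are close in sequence, the stretches that reads could confuse were looked for. The RXR genes share the longest, and they are printed here because the counts of Rxra, Rxrb and Rxrg are compared below. Capitals mark the 17 bases that all 3 RXR genes have in common, in their coding sequence (5′ to 3′, GENCODE transcripts of GRCm38).
Rxra and Rxrb, 29 bases: ctggagcacctgTTCTTCTTCAAGCTCAT
Rxrb and Rxrg, 20 bases: TTCTTCTTCAAGCTCATtgg
Rxra and Rxrg, 27 bases: catgggcatgaagcgggaagctgtgca
The reads were 150 bases long, more than any shared stretch. Within the other families the longest shared stretches were 17 bases for Nr1h2 with Nr1h3, 17 for Ppard with Pparg, and 17 for Ppargc1a with Ppargc1b. The only annotated gene whose exons overlap a member is Gm13783, over 34 bases of Nr1h3 on the same strand, and it is not in the count table.

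The 10 genes differed widely in level. On the FPKM scale, which divides by gene length and allows genes to be compared, Rxrb was highest in control pools, at 18.8 ± 1.19 FPKM (SD, n = 3), and Pparg lowest, at 0.146 ± 0.0350. Among the tested genes, ranked by control FPKM, Rxrb lay at percentile 81.4 and Pparg at percentile 7.61. Between them stood, in order, Rxrg (14.8 ± 3.30), Nr1h2 (12.8 ± 1.36), Rxra (9.35 ± 0.242), Ppard (6.16 ± 0.183), Ppargc1a (2.81 ± 0.214), Ppargc1b (2.34 ± 0.219), Nr1h3 (1.92 ± 0.209) and Ppara (0.661 ± 0.0888). In the control pools 2 pairs of neighbours in this order overlapped, Rxrg with Nr1h2 and Ppargc1b with Nr1h3, and the other 7 pairs did not. The order was the same in the olanzapine pools except that Ppargc1a (2.42 FPKM) and Ppargc1b (2.43 FPKM) were level.

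**Figure D1:**
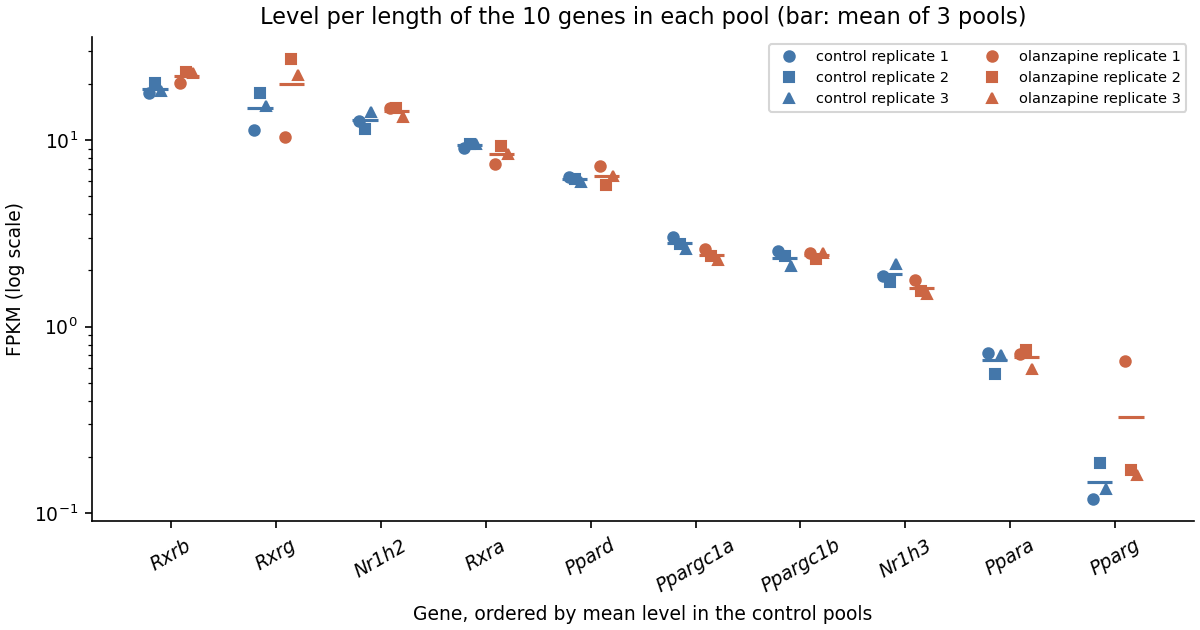
FPKM of the 10 genes (log axis) in the 3 control pools (blue) and the 3 olanzapine pools (orange), ordered by the control mean, with a bar at each group mean. The genes span from 0.119 FPKM for Pparg in control replicate 1 to 27.3 FPKM for Rxrg in olanzapine replicate 2, and on this scale the groups overlap for all genes but Rxrb and Ppargc1a.

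None of the 10 genes passed the test between olanzapine and control pools. In edgeR (quasi-likelihood test, Benjamini-Hochberg adjustment across the whole table), 0 of the 10 had an adjusted p under 0.05. Of all tested genes 2.32% did, 1.83% higher and 0.493% lower in the olanzapine group, and 1.01% also passed the study's fold limit (above 2 or below 0.5). DESeq2 also called 0 of the 10, against 5.79% of its genes. At an unadjusted p under 0.05 there were 2 of the 10 in both tools, Rxrb on the higher and Ppargc1a on the lower side, against 17.6% of all genes. In normalized CPM the groups did not overlap for 2 of the 10, Rxrb (olanzapine above) and Rxra (olanzapine below), against 24.3% of all genes, 13.3% above and 11% below. In FPKM, which has no such normalization between libraries, the 2 were Rxrb and Ppargc1a. These shares of 20% lie near the background. The median log2 fold change of the 10 was 0.04.

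**Figure D2:**
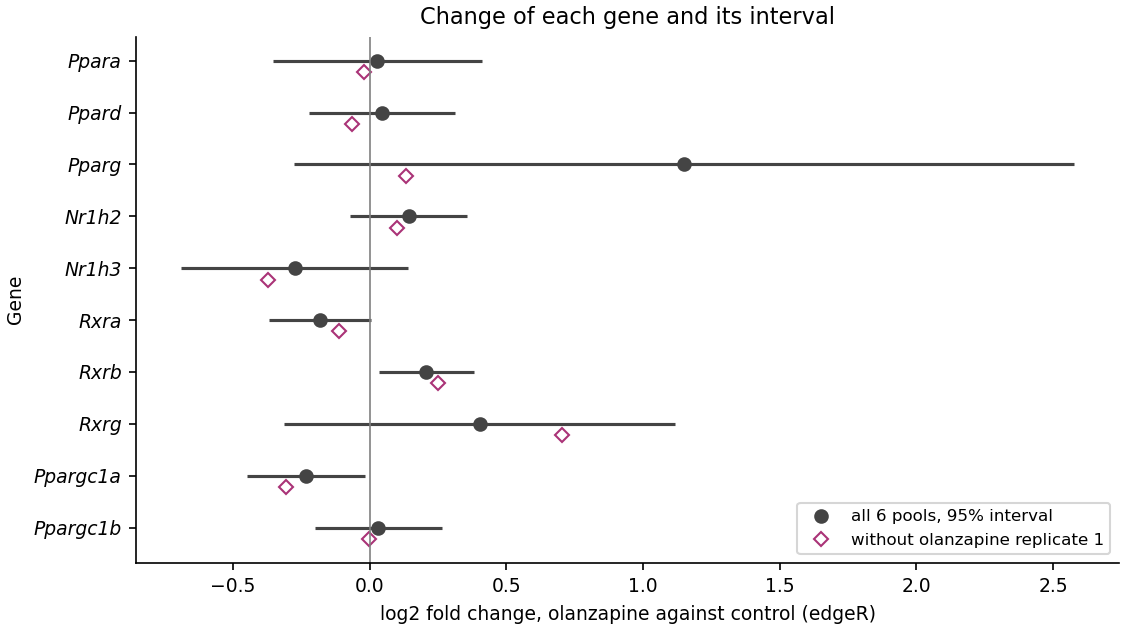
Log2 fold change of each gene, olanzapine against control, by edgeR with its 95% interval over all 6 pools (filled circles and lines), and the estimate without olanzapine replicate 1 (open diamonds). The intervals of Rxrb and Ppargc1a leave out 0 before adjustment, Pparg has the widest interval, and Pparg and Rxrg move most when olanzapine replicate 1 is left out.

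Among the PPARs, Ppard was the main transcript. Ppard (chr17:28232700-28301474), the ubiquitous receptor that drives fatty acid oxidation, had counts of 847, 819 and 789 in control pools 1 to 3 and of 932, 732 and 828 in olanzapine pools 1 to 3. The groups overlapped, with a log2 fold change of 0.05 (SE 0.12), and the 95% interval of the fold was 0.858 to 1.24. Ppara (chr15:85734983-85802819), the receptor of fasting and of fatty acid oxidation in the liver, had counts of 300, 232 and 289 in control and of 287, 299 and 239 in olanzapine pools. Its groups also overlapped, and the fold lay at 1.02 with a 95% interval of 0.783 to 1.33.

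Pparg (chr6:115360951-115490399), the master regulator of fat cells, was scarce in 5 of the 6 pools. Its counts were 16, 25 and 18 in control and 85, 22 and 21 in olanzapine pools. The single high pool was olanzapine replicate 1, and the other olanzapine pools lay within the control range. The log2 fold change was 1.15 (SE 0.62), with an adjusted p of 0.381 by edgeR (quasi-likelihood, Benjamini-Hochberg) and a 95% interval of the fold from 0.825 to 5.96. Without olanzapine replicate 1 the log2 fold change was 0.13. That pool is the one with the high sum of cortical neuron markers. Slc17a7, the vesicular glutamate transporter of cortical neurons, had 24973 counts there, or 659 of the summed 954 CPM. Rorb, of the same list and named here after its values were seen, was lowest in that pool, at 20.6 CPM against 21.2 to 26.0 in the other 5. Pparg had 2.24 CPM there against 0.409 to 0.632 in the other 5. Of the 6 adipocyte markers, only Retn passed the filter on low counts, and its estimate was -0.09 (adjusted p = 0.961, same edgeR test and Benjamini-Hochberg adjustment). The part of the tissue make-up in the Pparg value was not tested.

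Of the LXRs, Nr1h2 (LXRβ, chr7:44549616-44553951), the form found in most tissues, far exceeded Nr1h3 (LXRα, chr2:91184061-91202834), the form of liver, fat and macrophages. Nr1h2 had counts of 1847, 1670 and 2047 in control and of 2083, 2070 and 1895 in olanzapine pools. The groups overlapped, with a log2 fold change of 0.14 and a 95% interval of the fold of 0.952 to 1.28. The log2 fold change was 0.0734 without control replicate 2 and 0.23 without control replicate 3. Nr1h3 had 164, 153 and 187 counts in control and 151, 131 and 128 in olanzapine pools. After scaling to library size its groups overlapped too, with a fold of 0.827 and a 95% interval of 0.620 to 1.103. Nr1h2 made up 87.2%, 86.8% and 86.8% of the LXR FPKM in control and 89.3%, 90.5% and 89.9% in olanzapine pools. Every olanzapine pool lay above every control pool, and the mean share was 2.96 percentage points higher. A two-sided exact permutation test gave p = 0.1 (0.2 adjusted over the 4 family shares compared), which is the smallest p that 3 pools against 3 allow.

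**Figure D3:**
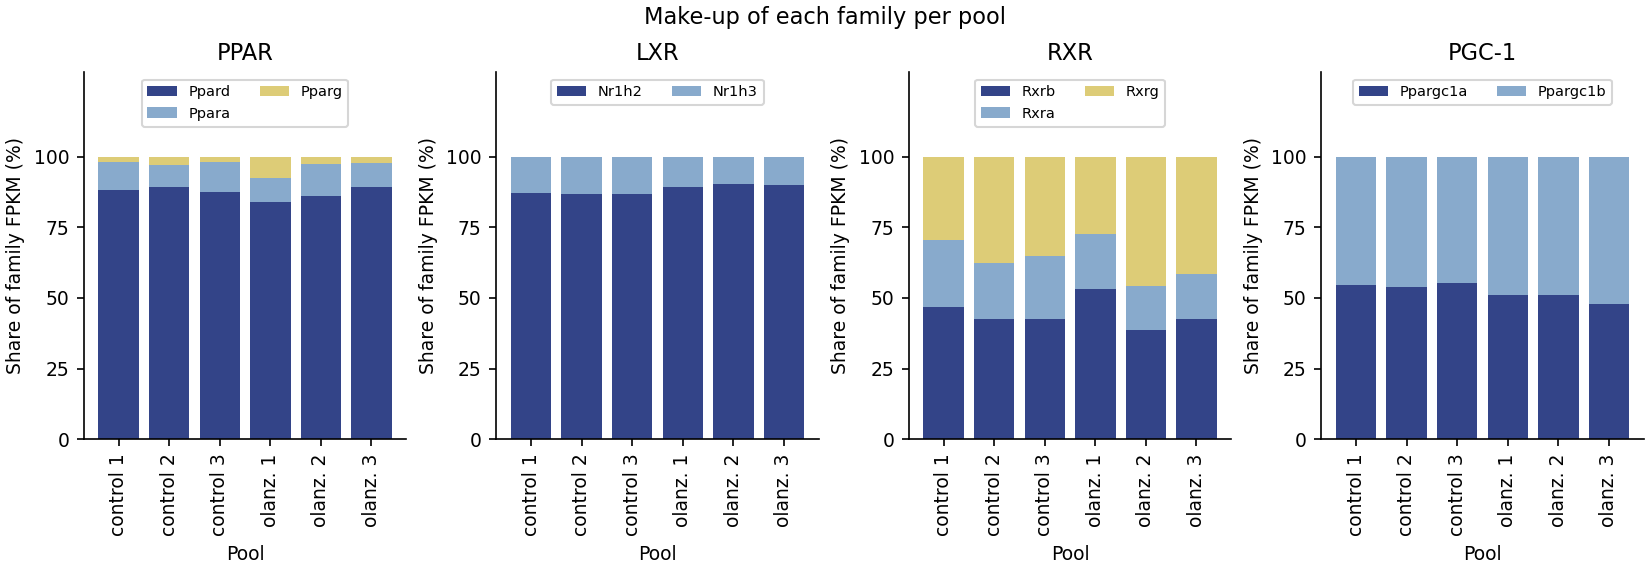
Make-up of each family in each pool as percent of the summed FPKM of its members (stacked bars from 0 to 100%). Ppard and Nr1h2 hold most of the PPAR and LXR signal in every pool, the Rxrg part of the RXR bars varies from 27.2% to 45.6%, and Ppargc1a holds 53.9% to 55.4% of PGC-1 in control and 47.9% to 51.2% in olanzapine pools.

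The RXRs, the common partners of all these receptors, gave estimates in different directions. Rxrb (chr17:34031812-34038399), the widely expressed form, had counts of 1980, 2219 and 1996 in control and of 2162, 2449 and 2439 in olanzapine pools, or 50.7, 56.1 and 50.7 CPM against 57.0, 61.9 and 62.8 CPM. In CPM every olanzapine pool lay above every control pool. The normalized counts were 2049 ± 122 (SD, n = 3) in control and 2366 ± 121 in olanzapine pools, a log2 fold change of 0.21 (SE 0.08) and a fold of 1.15 with a 95% interval of 1.02 to 1.30. The unadjusted p was 0.0245 in edgeR's quasi-likelihood test, and the adjusted p of 0.204 after Benjamini-Hochberg adjustment missed the threshold.

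Rxra (chr2:27676440-27762957), the form that dominates in liver, had 2063, 2150 and 2136 counts in control and 1627, 2032 and 1869 in olanzapine pools. In CPM every olanzapine pool lay below every control pool, the nearest pair being 51.4 and 52.8, while in FPKM the groups overlapped (9.07 to 9.50 in control and 7.42 to 9.33 in olanzapine pools). The log2 fold change was -0.18 (SE 0.08), a fold of 0.883 with a 95% interval of 0.776 to 1.005, and the adjusted p was 0.301 by edgeR (quasi-likelihood, Benjamini-Hochberg). Without olanzapine replicate 1, the lowest pool, the log2 fold change was -0.11.

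Rxrg (chr1:167598384-167639623), the form that in the brain is typical of the striatum, was the most variable RXR. It had 1130, 1782 and 1490 counts in control and 995, 2603 and 2159 in olanzapine pools. Olanzapine replicate 1 was the lowest of all 6 and the other 2 olanzapine pools the highest, so that the groups overlapped. The log2 fold change was 0.40 (SE 0.31, fold 1.32, 95% interval 0.805 to 2.17), with an adjusted p of 0.547 by edgeR (quasi-likelihood, Benjamini-Hochberg). In the same test it was 0.70 with an adjusted p of 0.0621 without olanzapine replicate 1, 0.13 without olanzapine replicate 2, and 0.25 without control replicate 1.

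The level of Rxrg moved with that of striatal neuron markers from pool to pool. The summed CPM of 9 such markers, the dopamine receptors Drd1 and Drd2 and the neuropeptides Penk and Tac1 among them, was 1440, 2474 and 1848 in control and 1481, 2900 and 2861 in olanzapine pools. Of these markers, 9 of 9 had positive log2 fold changes, with a median of 0.28, where 50.7% of all tested genes were positive. By edgeR 0 of 9 were called, while DESeq2 called Rgs9. Rxrg per 1000 CPM of striatal markers was 20.1, 18.2 and 20.5 in control and 17.7, 22.7 and 19.4 in olanzapine pools, a narrower range than the 26.3 to 65.8 CPM of Rxrg itself. The groups overlapped on this scale. How much striatal tissue contributed to the pools was not tested.

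**Figure D4:**
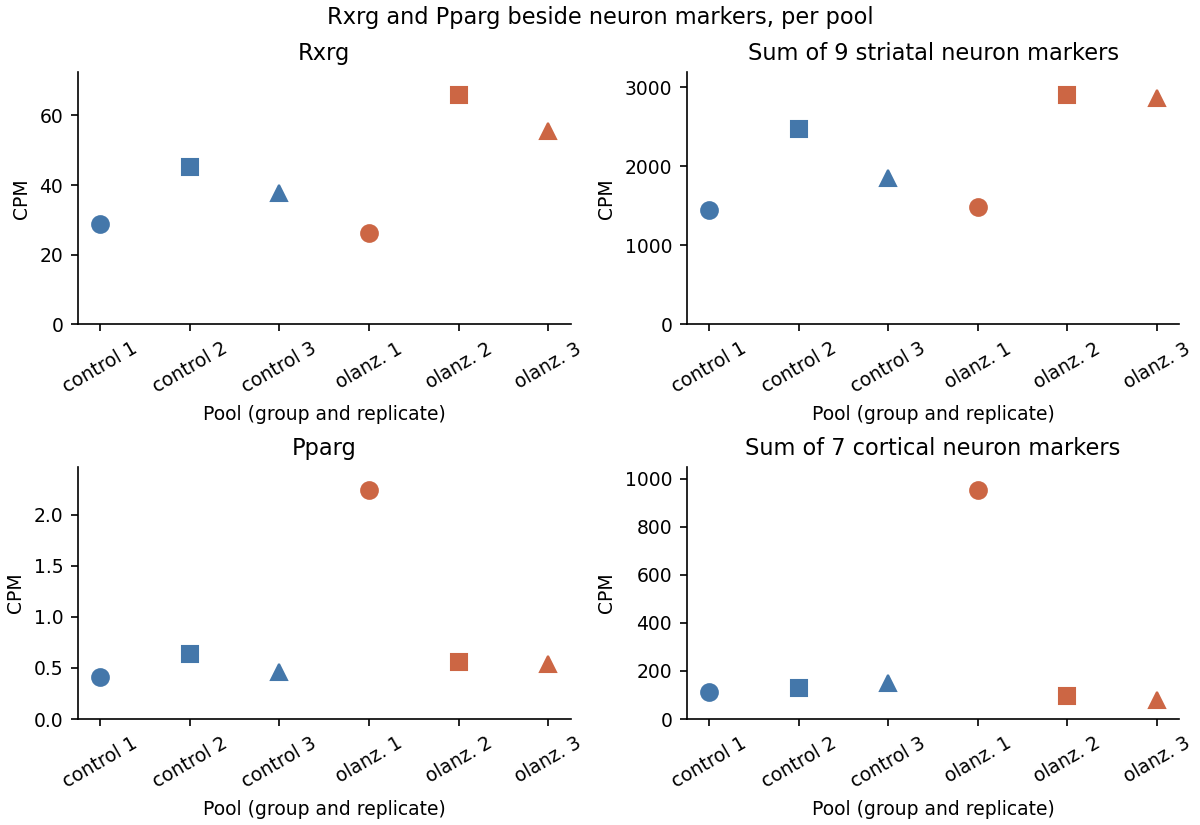
CPM per pool of Rxrg beside the sum of 9 striatal neuron markers (top), and of Pparg beside the sum of 7 cortical neuron markers (bottom), in control (blue) and olanzapine pools (orange). Rxrg and the striatal sum are low together in control replicate 1 and olanzapine replicate 1 and high together in olanzapine replicates 2 and 3, and Pparg and the cortical sum share a single high pool, olanzapine replicate 1.

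As a share of RXR FPKM, Rxrb took 46.8%, 42.4% and 42.6% in control and 53.3%, 38.8% and 42.5% in olanzapine pools. The groups overlapped, and the mean difference of 0.943 percentage points had a two-sided exact permutation p of 0.9. Without olanzapine replicate 1 the difference turned to -3.29 points. Rxra took 19.9% to 23.7% in control and 15.6% to 19.5% in olanzapine pools, and Rxrg 29.6% to 37.7% and 27.2% to 45.6%. The summed RXR FPKM was 38.4 to 47.6 in control and 38.1 to 59.7 in olanzapine pools, far above that of the PPARs (6.64 to 8.61 over all 6 pools) and LXRs (13.2 to 16.6).

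Ppargc1a (PGC-1α, chr5:51454250-51567726) was the other gene with an unadjusted p under 0.05. It had 1929, 1761 and 1640 counts in control and 1594, 1458 and 1410 in olanzapine pools, or 49.4, 44.5 and 41.6 against 42.1, 36.9 and 36.3 CPM. In CPM the groups overlapped, since control replicate 3 (41.6) lay just under olanzapine replicate 1 (42.1). They did not overlap in counts and in FPKM (2.61 to 3.03 against 2.28 to 2.60), which have no such normalization between libraries. The normalized counts were 1764 ± 152 (SD, n = 3) and 1500 ± 124, a log2 fold change of -0.23 (SE 0.09) and a fold of 0.850 with a 95% interval of 0.733 to 0.987. The unadjusted p was 0.0368 in edgeR's quasi-likelihood test, and the adjusted p of 0.246 after Benjamini-Hochberg adjustment missed the threshold.

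Ppargc1b (PGC-1β, chromosome 18) had 1097, 1027 and 899 counts in control and 1037, 959 and 1047 in olanzapine pools. Its groups overlapped, with a fold of 1.02 and a 95% interval of 0.870 to 1.20. Ppargc1a made up 54.5%, 53.9% and 55.4% of PGC-1 FPKM in control and 51.2%, 50.9% and 47.9% in olanzapine pools. Every olanzapine pool lay below every control pool, with a mean difference of -4.64 percentage points and a two-sided exact permutation p of 0.1 (0.2 adjusted over the 4 shares), again the smallest that this design allows.

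The unadjusted calls of Rxrb and Ppargc1a rested on the full set of pools. Each had an unadjusted p above 0.05 in edgeR's quasi-likelihood test in 4 of the 6 fits that left out 1 pool. For Rxrb these p-values were 0.0803 and 0.0661 without control replicates 1 and 3, and 0.0696 and 0.0794 without olanzapine replicates 2 and 3. For Ppargc1a they were 0.131 and 0.0718 without control replicates 1 and 2, and 0.105 and 0.112 without olanzapine replicates 2 and 3. Without olanzapine replicate 1, the pool with the cortical markers, 3 of the 10 genes were under 0.05 unadjusted: Rxrb (0.0109), Rxrg (0.00229) and Ppargc1a (0.00940), still with 0 of 10 called after adjustment. The log2 fold change kept its sign in every such fit for both genes, from 0.18 to 0.26 for Rxrb and from -0.30 to -0.17 for Ppargc1a.

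The 3 genes with patterns most like Rxrb over the 6 pools, among 14278 with a mean count of at least 50, were Mterf3, Rnpep and Mroh7 (Pearson r of log2 CPM 0.991, 0.989 and 0.987). Those most like Ppargc1a were Ppp1r26, Tmppe and Bri3bp (0.997, 0.995 and 0.991). With 6 pools and so many genes searched, these are a description only, and the points share library and group.

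The genes that PPARs are known to switch on were measured next, from a list of 40. Of the 33 tested, 4 rose and 0 fell, against 1.83% higher and 0.493% lower among all genes in the test. These 4 had too few control counts to pass the filter without their high olanzapine counts, so that their number is no support for a change of the list. At an unadjusted p under 0.05, 5 were higher and 2 lower, against 9.19% and 8.4% of all genes. The groups did not overlap for 5 above and 3 below (24.2% of the 33), against 13.3% above and 11% below among all genes (24.3%). The 5 on the higher side of both counts were these 4 and Acaa1b, which also passed the filter only through the olanzapine pools. Of the 27 targets that reached the filter's minimum in every control pool, 0 were called by edgeR. At an unadjusted p under 0.05 in that test, 0 of them were higher and 2 lower, against 9.19% and 8.4% of all genes. Without overlap, 0 of them lay above and 3 below, against 13.3% and 11% of all genes. The median log2 fold change of the 27 was -0.02. The 4 that rose were Pck1, Cyp4a10, Fabp1 and Cyp4a14, which in the body are abundant in the liver: a gluconeogenic enzyme, a fatty acid hydroxylase, a fatty acid carrier and another hydroxylase.

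Pck1 had 3, 11 and 3 counts in control and 133, 176 and 138 in olanzapine pools. Its log2 fold change was 4.71 (SE 0.47), with an adjusted p of 0.00314 by edgeR (quasi-likelihood, Benjamini-Hochberg). Fabp1 had 2, 17 and 14 against 91, 125 and 100 counts (log2 fold change 3.27, SE 0.56), and Cyp4a14 had 2, 1 and 7 against 25, 66 and 66 counts (3.94, SE 0.70). Cyp4a10 had 2 counts in all in control against 36, 41 and 16 with olanzapine, a ratio of 47.2 with an exact 95% counting interval of 12.7 to 396. All 4 were low in every control pool and higher in every olanzapine pool, and their levels stayed at or under 4.45 CPM. The hepatocyte markers moved with them, with a median log2 fold change of 3.804 in the 7 that reached the filter's minimum in every control pool, and whether these counts came from septal cells was not tested. Called genes in the list numbered 2 without control replicate 1, 1 without control replicate 2, 2 without control replicate 3, 1 without olanzapine replicate 2 and 2 without olanzapine replicate 3.

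Hadha and Ucp2, among the PPAR targets that the septum expressed most by FPKM, were not called. Hadha, of the mitochondrial trifunctional protein, had normalized counts of 3251 ± 149 (SD, n = 3) in control and 3422 ± 289 in olanzapine pools, a log2 fold change of 0.07. Ucp2, a mitochondrial carrier, had 2148 ± 676 and 1926 ± 721, a log2 fold change of -0.16. The groups overlapped for both. The adipocyte targets Adipoq, Plin1, Fabp4, Cidec and Aqp7 were among the 7 genes that failed the filter on low counts, with 9 counts or fewer in any pool.

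**Figure D5:**
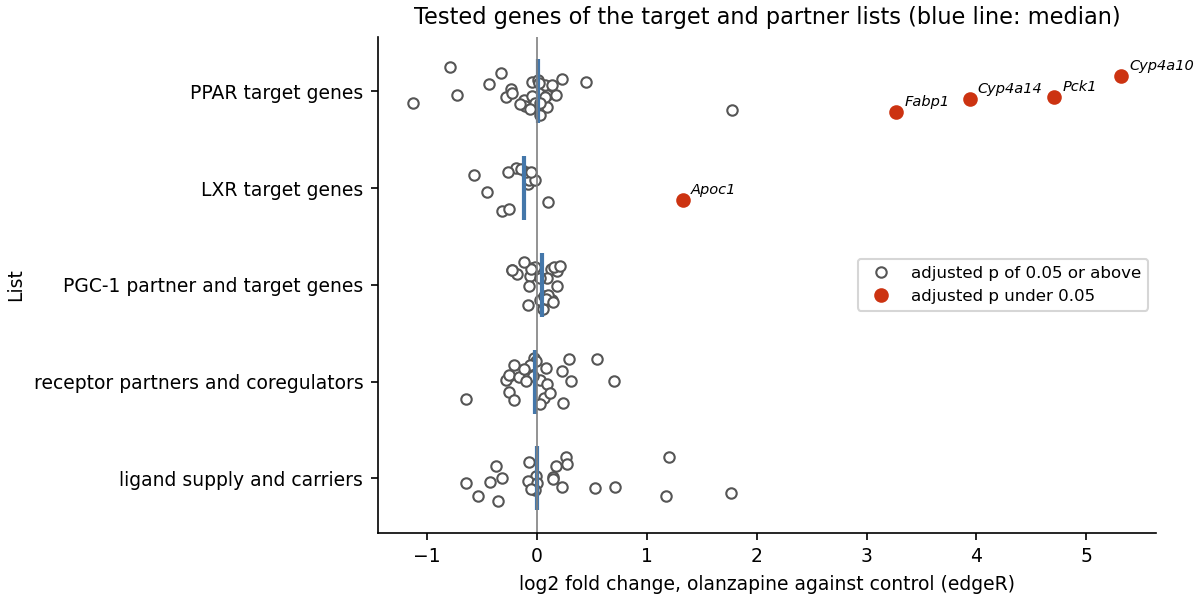
Log2 fold change (olanzapine against control, edgeR) of each tested gene in the lists of PPAR targets, LXR targets, PGC-1 partners and targets, receptor partners and coregulators, and ligand supply, with the median of each list as a blue line. The called genes (red) are Pck1, Cyp4a10, Fabp1 and Cyp4a14 among the PPAR targets and Apoc1 among the LXR targets, and the medians lie between -0.12 and 0.04.

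Of the 18 LXR targets, 14 were tested, and 1 rose and 0 fell (7.14% against 2.32%). It was Apoc1, an apolipoprotein made in the liver and by macrophages, with 112, 88 and 136 counts in control and 219, 308 and 306 in olanzapine pools. Its log2 fold change was 1.33 (SE 0.22), with an adjusted p of 0.0237 by edgeR (quasi-likelihood, Benjamini-Hochberg), and it moved beside the hepatocyte markers. In this test its adjusted p was 0.104, 0.101, 0.0864 and 0.0966 without control replicates 1 and 2 and olanzapine replicates 2 and 3.

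No LXR target was called lower by edgeR. Of the 14 tested, 12 had negative log2 fold changes, where 50.7% of all tested genes were positive, and the median was -0.12. At an unadjusted p under 0.05, 1 was higher and 4 lower, against 9.19% and 8.4% of all genes. Those 4, chosen here after their values were seen apart from Pltp, were Abca1, Srebf1, Acaca and Pltp. Abca1, the pump that loads cholesterol onto apolipoproteins, had 2567, 2635 and 2525 counts in control and 1499, 2107 and 1946 in olanzapine pools. Every olanzapine pool lay below every control pool, with a log2 fold change of -0.46 (SE 0.11) and an adjusted p of 0.0818 by edgeR (quasi-likelihood, Benjamini-Hochberg). Without olanzapine replicate 1 that adjusted p was 0.0441 and the log2 fold change -0.34, without each of the other pools it was 0.0864 to 0.253, and DESeq2 gave an adjusted p of 0.00811.

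Srebf1, the switch of fatty acid synthesis, had 3831, 3908 and 4138 counts in control and 2595, 3567 and 3219 in olanzapine pools, which did not overlap (log2 fold change -0.32, SE 0.10, adjusted p = 0.164 by the same edgeR test with Benjamini-Hochberg adjustment). Acaca, which makes malonyl-CoA, had a log2 fold change of -0.26, and Pltp, the phospholipid transfer protein, one of -0.58 with overlapping groups. The adjusted p of Pltp was 0.205 by edgeR and 0.0437 by DESeq2, both with Benjamini-Hochberg adjustment, and its log2 fold change was -0.37 without control replicate 3. Pltp had 121, 154 and 199 CPM in control and 88.5, 135 and 94.3 CPM in olanzapine pools. The 8 choroid plexus markers summed to 105, 2707 and 7509 against 1161, 4709 and 68.9 CPM. Of their estimates 8 of 8 were negative (median log2 fold change -0.68), where 50.7% of all tested genes were positive, and 0 were called by edgeR. Within each group Pltp and these markers were highest in the same pool, and the part of choroid plexus in the Pltp value was not tested. The most abundant LXR targets, Apoe (1005 FPKM over the 6 pools, log2 fold change -0.02) and Scd1 (-0.19), were not called. The markers of astrocytes, the cells that make most of the brain's Apoe, had a median log2 fold change of -0.22. At an unadjusted p under 0.05 by edgeR, 0 of the 6 were higher and 3 lower, against 9.19% and 8.4% of all tested genes. After adjustment 0 were called by edgeR, while DESeq2 called Slc4a4 lower. The part of astrocyte content in the Abca1 and Srebf1 values was not tested.

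None of the genes through which PGC-1 acts on mitochondria was called. All 24 listed genes were tested, and their estimated log2 fold changes ran from -0.23 to 0.21 with a median of 0.04. At an unadjusted p under 0.05 there were 2 of 24, 1 higher and 1 lower, against 17.6% of all tested genes, and the groups did not overlap for 7 of 24 (6 above and 1 below, 29.2% against 24.3%). The intervals were wider than this range of estimates for some genes, such as Cox7a1, named here after its values were seen, with a 95% interval of the fold from 0.474 to 1.63. The most abundant, Cox4i1 and Cox5b of cytochrome oxidase and Sdhb of succinate dehydrogenase, had log2 fold changes of 0.05, 0.09 and 0.10.

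Receptor partners and coregulators were represented by 29 genes, of which 26 were tested and 0 called, with a median log2 fold change of -0.02. At an unadjusted p under 0.05, 2 of the 26 were higher and 5 lower, against 9.19% and 8.4% of all tested genes. The most abundant were Thra, a thyroid hormone receptor that also pairs with RXR (log2 fold change 0.03), Hdac3, the deacetylase of corepressor complexes (0.11), and Ncor1, a corepressor (-0.21). Prdm16, a partner of PGC-1α in brown fat that was chosen here after its values were seen, had 3548, 2673 and 2665 counts in control and 1434, 1903 and 2277 in olanzapine pools. Its groups did not overlap, with a log2 fold change of -0.64 (SE 0.17) and an adjusted p of 0.114 by edgeR (quasi-likelihood, Benjamini-Hochberg), against 0.00657 by DESeq2.

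Enzymes and carriers that supply retinoid, oxysterol and fatty acid ligands numbered 24, of which 23 were tested and 0 called, with a median log2 fold change of -0.0018. At an unadjusted p under 0.05, 4 of the 23 were higher and 1 lower, against the same 9.19% and 8.4%. The most abundant were Ptgds, the brain prostaglandin D synthase (log2 fold change -0.02), and the fatty acid carriers Fabp3 (0.17) and Fabp5 (0.14). Rbp4, the retinol carrier of blood that the liver secretes, was chosen here after its values were seen. It had 164, 209 and 224 counts in control and 599, 424 and 327 in olanzapine pools, which did not overlap. Its log2 fold change was 1.20 (SE 0.24), with an adjusted p of 0.0504 by edgeR (quasi-likelihood, Benjamini-Hochberg), and DESeq2 gave 0.000109. In the edgeR test the adjusted p was 0.0426 without olanzapine replicate 1, the pool with the high cortical marker sum, with a smaller log2 fold change of 0.92. Without each of the other pools it was 0.0522 to 0.172. The part of the tissue make-up in the Rbp4 value was not tested. Cyp46a1, the neuronal enzyme that makes the LXR ligand 24S-hydroxycholesterol, also chosen after its values were seen, had 5532, 5760 and 5296 counts against 6766, 6482 and 6482. Every olanzapine pool lay above every control pool, with a log2 fold change of 0.27 (SE 0.07) and an adjusted p of 0.0930 by edgeR against 0.0341 by DESeq2, both with Benjamini-Hochberg adjustment.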

How the data were processed

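Bulk RNA-seq of 3 control and 3 olanzapine pools was analysed. The authors trimmed reads with fastp, aligned them to mm10 with HISAT2 and counted them with HTSeq, per the study's methods and the submitters' processing notes, and deposited raw counts and FPKM per gene. The strand setting and annotation are not given in the sources used here. The deposited FPKM equal the count divided by gene length and library total, within 1.12e-07 in 14276 genes. Columns of per-sample values left unused numbered 0.

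Groups came from the labels. Counts were filtered with filterByExpr (minimum count 10, minimum total 15), normalized with TMM and tested with edgeR 4.0.16 (R 4.3.3) by the quasi-likelihood test with group as the only term. A gene was called at a Benjamini-Hochberg adjusted p under 0.05. The standard error was the log2 fold change divided by the square root of F, and 95% intervals used the fit's degrees of freedom. CPM and normalized counts use TMM factors. No label gives a batch.

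The text names the 10 genes, the called genes (up to 5) and the 3 with the highest FPKM of each pathway list, the top gene of each marker list, and the 3 most like Rxrb and Ppargc1a, and otherwise genes marked as chosen after their values were seen, or list members named only to describe a list (Drd1, Drd2, Tac1, Lep, Hnf4a, Cps1, Tat, Acaa1b, Adipoq, Plin1, Fabp4, Cidec and Aqp7), which were chosen outside the rule, with values known. A few genes that this rule names are left out of the text. Members and lists were chosen with earlier results of these data known. Marker lists covered septal, striatal and cortical neurons, choroid plexus, hepatocytes, adipocytes, astrocytes, microglia, oligodendrocytes, endothelium and nuclear-retained RNAs. Alternatives were RLE and upper-quartile scaling, DESeq2 1.42.0, no filter, a mean count of at least 50, the replicate block, limma 3.58.1 on log2(FPKM + 1) or log2(FPKM + 0.1) (mean FPKM of at least 0.1, or no filter), other thresholds, and leaving out each pool. Intervals of counts cover counting error only.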

Additional observations from a re-analysis of the deposited data

How the results depend on the processing

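None of the 10 genes was called under any of the adjusted alternatives, and 2, Rxrb and Ppargc1a, were under 0.05 unadjusted. These counts at unadjusted p under the alternatives were chosen after seeing the data. The count was 1 (Rxrb) in the 3 limma fits. Leaving out 1 pool gave 0 without control replicate 1, 1 (Rxrb) without control replicate 2, 2 (Nr1h2 and Ppargc1a) without control replicate 3, 3 (Rxrb, Rxrg and Ppargc1a) without olanzapine replicate 1, 2 (Pparg and Rxra) without olanzapine replicate 2, and 1 (Pparg) without olanzapine replicate 3. Of the 10, 7 kept the sign of their log2 fold change in every alternative. Leaving out 1 pool gave ranges of -0.0759 to 0.12 for Ppara, -0.0637 to 0.14 for Ppard and -0.0378 to 0.10 for Ppargc1b. The difference in the Rxrb share of RXR FPKM, olanzapine minus control, ranged from -3.29 to 3.997 percentage points.

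The called PPAR targets numbered 2 with a mean count of at least 50, 2 in limma on log2(FPKM + 1) with or without the filter, 7 at unadjusted p, and 1 to 4 when 1 pool was left out. LXR targets numbered 3 with DESeq2, 0 in limma without the filter, 5 at unadjusted p, and 0 to 2 without 1 pool. PGC-1 targets numbered 2 at unadjusted p. Partners numbered 1 with DESeq2 and 7 at unadjusted p. Ligand genes numbered 1 with upper-quartile scaling, 2 with DESeq2, 1 without the filter, 5 at unadjusted p, and 0 to 1 without 1 pool. For all genes the count was 401, against 1097 with DESeq2 240 in limma without the filter, and 131 (without control replicate 2) to 508 (without olanzapine replicate 1) when 1 pool was left out. The causes were not tested.

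Single genes near 0 turned sign: Apoe (0.0033) and Ptgds (0.0032) in the limma fits. Leaving out 1 pool gave -0.51 to 0.11 for Ucp2, -0.0726 to 0.0780 for Apoe, -0.0273 to 0.0890 for Thra, -0.20 to 0.11 for Ptgds, -0.0461 to 0.28 for Fabp3, -1.38 to 3.04 for Slc17a7, -2.57 to 0.55 for Ttr, -0.53 to 0.28 for Retn and -0.21 to 0.0485 for Mbp.

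No label says what pools of the same replicate number have in common. Deviations from the group means correlated at 0.01, 0.11 and -0.40 for pools of the same number, and not every pool correlated best with its own number. Whether such pools shared a batch cannot be told from these values. With the replicate block, 140 genes were called, with 0 of the 10 genes, 1 PPAR target and 0 LXR targets, and log2 fold changes turned sign for Slc17a7 (-0.11) and Ttr (0.54). With 3 pools per group, changes of the size seen in Rxrb could not be told from the spread after adjustment, and Pparg, at 16 to 25 counts in most pools, was the least precise of the 10.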
